A study of Mus musculus with 2 samples.

Results

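Polycomb group proteins form the main complexes that hold developmental genes silent in chromatin. The 10 genes described here encode catalytic, core and accessory subunits of both Polycomb complexes, Ezh1, Ezh2, Eed, Suz12, Jarid2, Bmi1, Ring1, Rnf2, Cbx7 and Cbx8. They were chosen by name and not by a rule on their values, though with earlier results of these data known. Matching was by gene symbol among the 43346 mouse genes. All 10 were found, with 74 annotated transcripts. RNA was measured in G1E-ER4 cells, an immortalised mouse erythroid progenitor line from a male. The line lacks a working Gata1 gene and carries the transcription factor GATA1 fused to the hormone-binding part of the estrogen receptor, which makes its activity depend on estradiol. There was 1 group, polyadenylated RNA taken after 3 h in 10 nM 17beta-estradiol, in 2 libraries that the labels number as biological replicates 1 and 2. The labels give both libraries 1 cell sample record, and the error printed with a mean may therefore be technical spread only. Untreated cells were not analysed here, and every value is a level in treated cells.

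Polycomb repressive complex 2 (PRC2) methylates histone H3 at the lysine called H3K27. Its core joins a methyltransferase, EZH1 or EZH2, to SUZ12 and to EED, which binds the finished mark and stimulates the enzyme. Polycomb repressive complex 1 (PRC1) attaches ubiquitin to histone H2A through RING1 or RNF2 paired with a PCGF protein such as BMI1, and its CBX subunits read the mark that PRC2 writes. In human erythroid cells, EZH1 is known to take over from EZH2 as progenitors mature, and GATA factors bind regulatory DNA of these genes.

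Levels are given as TPM, a deposited unit of transcript abundance that corrects for length and has an equal sum in every library. Replicate 1 held 31126956 expected counts, the estimated number of fragments assigned to genes, and replicate 2 held 57853617. Across the 9269 genes whose mean reached 1 TPM, the libraries correlated with a Pearson r of 0.887 and a Spearman rho of 0.882. This is a description across genes, which are not independent replicates. A list of 12 erythroid markers was at 1 TPM or more in both libraries for every member, with a median of 134 TPM in replicate 1 and of 155 TPM in replicate 2. Its summed level was 2726 and 18187 TPM, a difference carried mostly by the globin genes Hbb-bs, at 863 and 9484 TPM, and Hba-a1, at 149 and 6606 TPM. Noncoding transcripts held 92.8% and 99.9% of Hbb-bs TPM and 76.8% and 99.0% of Hba-a1 TPM. With coding transcripts only, Hbb-bs was at 61.8 and 7.91 TPM, the opposite direction, and Hba-a1 at 34.5 and 69.0 TPM. Globin genes have near-identical copies, so their single values are uncertain. Of the 12 markers, 6 were past 2-fold between the libraries and higher in replicate 2, beside 18.2% of all genes tested. Gata1 was among the 6, at 190 and 799 TPM and 5.12-fold higher in replicate 2, and is named after its values were seen. Klf1, in contrast, was 1.84-fold higher in replicate 1. For Gata1, RNA of the GATA1 fusion that the line carries was not told apart here from RNA of the gene itself. None of the 8 granulocyte and monocyte, 8 lymphocyte, 5 mast cell or 5 fibroblast and stroma markers reached 1 TPM in both libraries, with summed levels between 0.22 and 2.45 TPM. Of 6 megakaryocyte markers 2 did, Gp5, at 148 and 69.8 TPM, and Itga2b, at 11.6 and 13.6 TPM. The summed level of the 6 was 161 and 84.8 TPM. The part of these differences in the values below was not tested.

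Of the 10 Polycomb genes, 9 were at 1 TPM or more in both libraries and Cbx8 had no count in either. Over all mouse genes, 20.2% were at that level in both libraries, and over protein-coding genes 38.6%. The median level of the 10 genes was 76.0 TPM in replicate 1 and 46.8 TPM in replicate 2. Genes at 1 TPM or more in both libraries had medians of 20.3 and 19.1 TPM. The gene-level counts of all 9 measured genes were whole within 0.005 in both libraries, as in genes whose fragments are not divided with another gene. Among all genes with a summed count of at least 20, 86.7% shared that property.

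**Figure D1:**
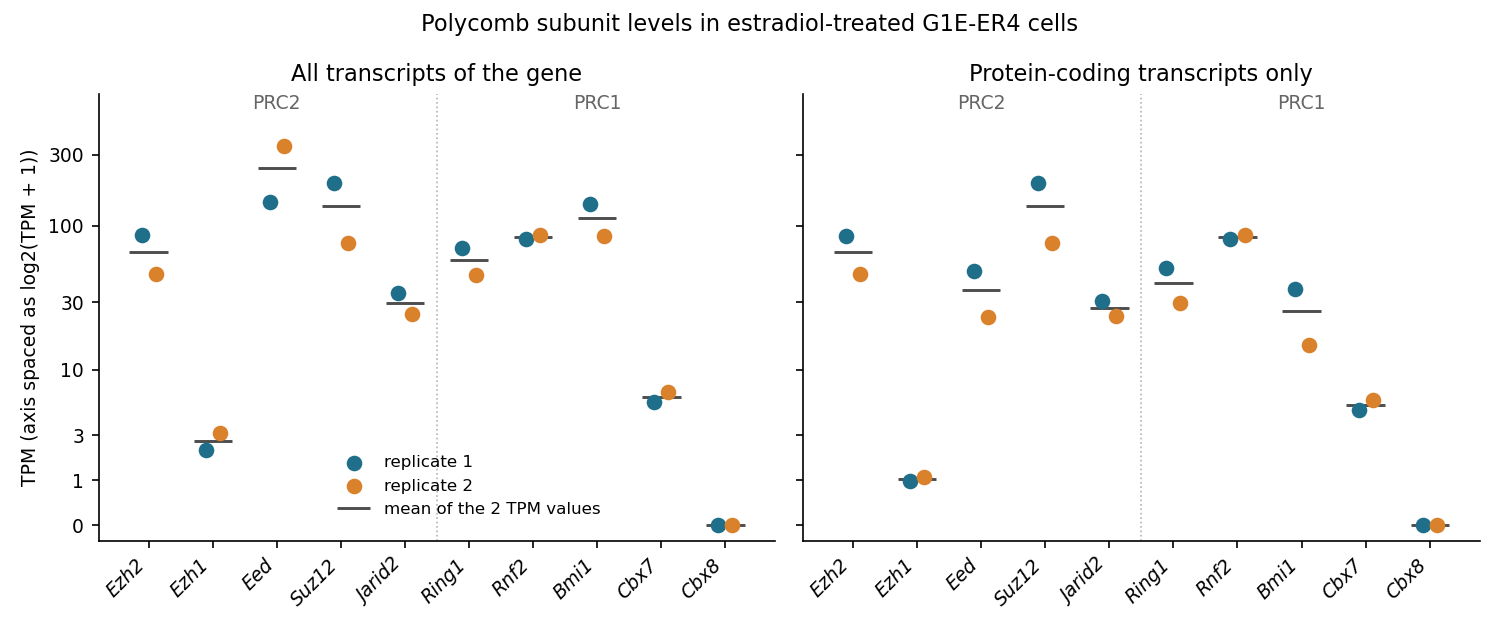
TPM of the 10 Polycomb genes in each library, on an axis spaced as log2(TPM + 1), summed over all transcripts of the gene (left) and over protein-coding transcripts only (right). Points are libraries and bars are means of the 2 TPM values. Eed and Bmi1 stand lower in the right panel, Ezh2, Suz12 and Rnf2 stand at nearly the same place in both, and Cbx8 is at 0.

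Of the RNAs for the PRC2 methyltransferase, Ezh2 was far more abundant than Ezh1. Ezh2, the main H3K27 methyltransferase of dividing cells, was at 86.0 TPM in replicate 1 and at 47.1 TPM in replicate 2, a mean of 66.5 ± 27.5 TPM (SD, n = 2). Ezh1, its less active paralog, which persists in cells that no longer divide, was at 2.16 and 3.16 TPM, a mean of 2.66 ± 0.71 TPM (SD, n = 2). Both values of Ezh1 lay far below both values of Ezh2. Ezh2 exceeded Ezh1 39.8-fold in replicate 1 and 14.9-fold in replicate 2. On the log2(TPM + 1) scale the difference was 4.16 ± 0.89 (SD, n = 2). Both genes of a pair were measured in the same 2 libraries. Even taken as unpaired, 2 values a side give an exact permutation test a smallest p of 0.33. No test was therefore made for this or any other pair.

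Ezh1 rested on few fragments, 114 in replicate 1 and 298 in replicate 2. The exact Poisson 95% interval was 94.0 to 137 counts in replicate 1 and 265 to 334 in replicate 2, and covers counting error only. Transcripts that encode no protein held 54.6% and 65.2% of its TPM but, being short, 14.1% and 22.8% of its fragments. The leading transcript differed between the libraries. It was the protein-coding Ezh1-203 in replicate 1, with 41.7% of the gene's TPM, and the processed transcript Ezh1-204 in replicate 2, with 49.96%. By the authors' posterior mean values, Ezh1-203 held 20.1% in replicate 1, below the noncoding Ezh1-209 at 21.9%. Ezh1-204 had no count in replicate 1 and 55.1 counts in replicate 2. With protein-coding transcripts only, Ezh1 was at 0.98 and 1.10 TPM, and the excess of Ezh2 was larger, 87.2-fold and 42.7-fold. Ezh2 itself kept nearly all of its level in this count, 85.4 and 46.9 TPM, since its noncoding transcripts held 0.66% and 0.38%. One coding transcript, Ezh2-203, held 88.1% and 84.1% of Ezh2 TPM.

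The promoters of this pair are printed because GATA factors are known at human EZH loci. Each window is RefSeq sequence of GRCm38.p6 from 250 bases before to 50 bases after a start that RefSeq gives the gene. It is printed 5′ to 3′ on the gene's strand, with motif matches in capitals. Ezh2 lies on the minus strand at chr6:47594981-47595280 and Ezh1 on the minus strand at chr11:101226414-101226713. In the GENCODE M21 annotation the Ezh2 gene begins at chr6:47595341, so its window lies within the gene. The windows of Jarid2 and Cbx7 likewise lie within those genes.
Ezh2: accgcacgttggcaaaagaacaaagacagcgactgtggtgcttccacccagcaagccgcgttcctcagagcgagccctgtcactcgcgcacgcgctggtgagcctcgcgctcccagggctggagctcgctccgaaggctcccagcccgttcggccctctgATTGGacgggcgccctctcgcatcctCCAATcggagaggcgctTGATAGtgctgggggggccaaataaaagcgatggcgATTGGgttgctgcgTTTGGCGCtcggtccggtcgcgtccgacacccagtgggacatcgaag
Ezh1: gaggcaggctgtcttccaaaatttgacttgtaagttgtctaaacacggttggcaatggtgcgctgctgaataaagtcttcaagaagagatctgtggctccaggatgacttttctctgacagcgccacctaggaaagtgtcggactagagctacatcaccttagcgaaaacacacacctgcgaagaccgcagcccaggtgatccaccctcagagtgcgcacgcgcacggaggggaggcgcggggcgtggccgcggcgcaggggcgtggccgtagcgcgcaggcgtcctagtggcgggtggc
Both strands were searched. The word for GATA factors was GATA preceded by A or T and followed by A or G. The words for E2F factors, which drive genes of dividing cells, were TTTCCCGC, TTTCGCGC, TTTGCCGC and TTTGGCGC. The word for the factor NFY was CCAAT. In the printed windows no match overlapped another. The Ezh2 window held 1 GATA word, 1 E2F word and 3 CCAAT words, and the Ezh1 window held none. Over the 32851 promoter windows of the table, a GATA word was in 29.8%, an E2F word in 2.26% and CCAAT in 37.4%. All 10 genes had a window, with 2 for Jarid2. A GATA word was in the window of Ezh2 alone, an E2F word in those of Ezh2 and Suz12, and CCAAT in those of 6 genes, Ezh2, Eed, Suz12, Jarid2, Cbx7 and Cbx8. A match is a description of letters, and a window without one says nothing of the factor.

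Eed had the highest mean level of the 10 genes, though Suz12 was above it in replicate 1, and most of the Eed level belonged to a short transcript that keeps part of an intron. Eed, the PRC2 subunit that reads trimethylated H3K27, was at 145 TPM in replicate 1 and at 345 TPM in replicate 2, a mean of 245 ± 141 TPM (SD, n = 2). The gene lies on the minus strand at chr7:89954654-89980983 and has 2 annotated transcripts. Eed-202, which the annotation calls a retained intron, is 454 bases long and shares 301 of them with the coding transcript Eed-201. It held 66.0% of Eed TPM in replicate 1 and 93.2% in replicate 2. The coding transcript was at 49.5 and 23.6 TPM, a mean of 36.5 ± 18.3 TPM (SD, n = 2).

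The transcripts of Eed differed between the libraries in opposite directions. Eed-202 had 756 expected counts in replicate 1 and 5084 in replicate 2, and after scaling for library size it was 3.91-fold higher in replicate 2. Eed-201 had 2366 and 2362 expected counts and was 1.72-fold higher in replicate 1. Retained intron transcripts of all genes together took 12.7% of TPM in replicate 1 and 13.3% in replicate 2, a far smaller difference than that of Eed-202. By counts rather than TPM, Eed-202 held 24.2% and 68.3% of the fragments of the gene. The quantifier's division of fragments between these transcripts is an estimate wherever they share bases.

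The sequences below show where the short noncoding transcripts of Eed, Bmi1 and Ring1 run past a splice site of the coding transcript. Each is read from GENCODE M21 transcripts on GRCm38, 5′ to 3′ on the gene's strand, with the last 30 exon bases in lower case and the first 30 intron bases that the short transcript keeps in capitals. The Eed window ends exon 2 of 12 of Eed-201, on the minus strand at chr7:89976867-89976926. The Bmi1 window ends exon 3 of 10 of Bmi1-201, on the plus strand at chr2:18682290-18682349. The Ring1 window ends exon 2 of 7 of Ring1-201, on the minus strand at chr17:34024259-34024318.
Eed-202: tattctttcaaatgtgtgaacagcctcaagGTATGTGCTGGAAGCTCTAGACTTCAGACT
Bmi1-203: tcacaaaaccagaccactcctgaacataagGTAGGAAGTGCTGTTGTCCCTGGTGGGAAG
Ring1-202: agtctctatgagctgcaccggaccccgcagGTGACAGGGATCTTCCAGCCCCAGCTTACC
All 3 kept stretches begin with GT, the usual first bases of an intron. Eed-202 keeps 153 intron bases before it ends, Bmi1-203 keeps 46 and Ring1-202 keeps 98. Fragments from the shared exons upstream of these sites fit both the short and the coding transcript.

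**Figure D2:**
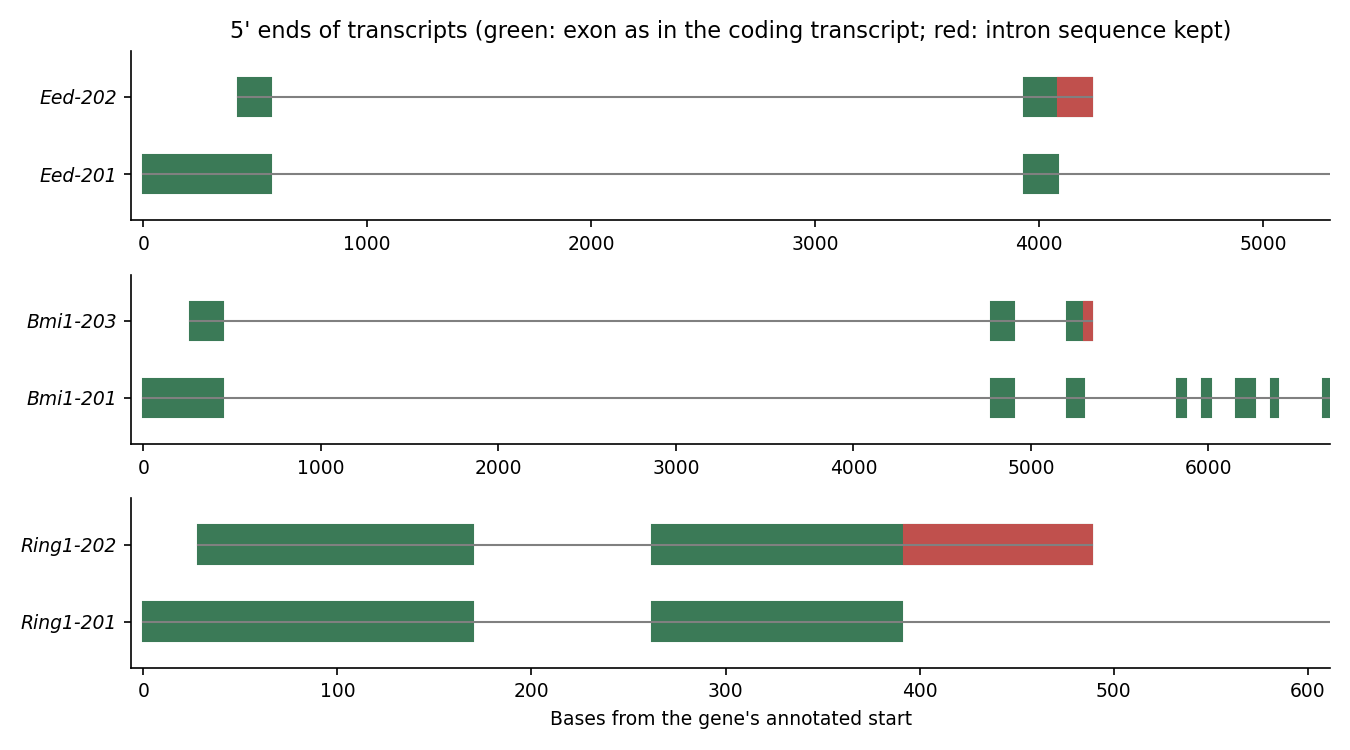
Exons of the coding transcript and of the short noncoding transcript of Eed, Bmi1 and Ring1, drawn to scale by distance in bases from the annotated start of the gene. Each short transcript shares its exons with the 5′ part of the coding one and runs past a splice site, by 153 bases in Eed, 46 in Bmi1 and 98 in Ring1.

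Suz12, the PRC2 subunit that ties the enzyme to nucleosomes and accessory factors, had the highest mean of the 10 when protein-coding transcripts alone were summed, though Rnf2 was above it in replicate 2. It was at 194 TPM in replicate 1 and at 76.2 TPM in replicate 2, a mean of 135 ± 83.5 TPM (SD, n = 2), and noncoding transcripts held 0.04% and 0.13% of it. Transcript Suz12-206 held 83.2% and 80.7% of the gene's TPM and Suz12-201 held 16.8% and 19.1%. With all transcripts, Suz12 over Eed was 1.34-fold in replicate 1 and 0.22-fold in replicate 2, so the libraries disagreed on which was higher. With coding transcripts only, Suz12 exceeded Eed in both, 3.93-fold and 3.23-fold, a log2(TPM + 1) difference of 1.80 ± 0.21 (SD, n = 2).

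Jarid2, a PRC2 cofactor that helps bring the complex to chromatin, was at 34.8 TPM in replicate 1 and at 24.98 TPM in replicate 2, a mean of 29.9 ± 6.92 TPM (SD, n = 2). It has 16 annotated transcripts, of which 7 had counts in both libraries and 4 had none in either. The leading one was Jarid2-210 in replicate 1, with 22.7% of TPM, and Jarid2-211 in replicate 2, with 42.5%. Jarid2-211 is annotated as coding but without a complete coding sequence. Transcripts with a complete coding sequence summed to a mean of 8.45 TPM. A nonsense-mediated decay transcript, Jarid2-207, was at 3.85 TPM in replicate 1 and listed at 0 in replicate 2.

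Both ubiquitin ligases of PRC1 were present, with more Rnf2 than Ring1 RNA. Rnf2, which encodes RING1B, was at 81.8 TPM in replicate 1 and at 87.0 TPM in replicate 2, a mean of 84.4 ± 3.69 TPM (SD, n = 2). By their ratio, the libraries were closer for Rnf2 TPM than for any other of the 9 measured genes. Ring1, which encodes RING1A, was at 70.2 and 46.6 TPM, a mean of 58.4 ± 16.7 TPM (SD, n = 2). Rnf2 exceeded Ring1 1.17-fold in replicate 1 and 1.87-fold in replicate 2. With coding transcripts only, the excess was 1.58-fold and 2.94-fold, because noncoding transcripts held 26.4% and 36.4% of Ring1 TPM and 0.10% and 0.05% of Rnf2 TPM. The Rnf2 level came mostly from a short coding transcript of 1106 bases, Rnf2-203, with 82.7% and 90.8% of TPM. The longer Rnf2-201, of 3160 bases, was at 13.9 and 7.88 TPM.

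Bmi1, the PCGF4 partner that activates the ligase in canonical PRC1, was at 141 TPM in replicate 1 and at 85.7 TPM in replicate 2, a mean of 113 ± 39.0 TPM (SD, n = 2). As for Eed, a short transcript led. The processed transcript Bmi1-203, 464 bases long with 418 shared with the coding transcript, was at 104 and 70.5 TPM and held 73.7% and 82.3% of the gene's TPM. It took 21.6% and 31.1% of the gene's fragments. Coding transcripts of Bmi1 were at 37.0 and 15.1 TPM. Bmi1 exceeded its paralog Pcgf2, which encodes MEL18, 22.4-fold and 20.01-fold with all transcripts. With coding transcripts only, the excess was 5.89-fold and 3.56-fold.

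Of the CBX readers, Cbx7 was low and Cbx8 had no count. Cbx7, whose chromodomain binds trimethylated H3K27, was at 5.68 TPM in replicate 1 and at 6.74 TPM in replicate 2, a mean of 6.21 ± 0.75 TPM (SD, n = 2). Its leading transcript also differed between libraries. It was Cbx7-203 in replicate 1, with 65.8% of TPM, and Cbx7-202 in replicate 2, with 39.9%, both protein-coding. Cbx7-202 had no count in replicate 1. Cbx8, a paralog with the same kind of chromodomain, had 0 counts in both libraries over its 3 transcripts. A limit of 3 counts in a library was set for a count of 0. Placed on the shortest Cbx8 transcript, of 533 bases, 3 counts would be 0.305 TPM in replicate 1 and 0.150 TPM in replicate 2. Against that limit Cbx7 was 18.6-fold higher than Cbx8 in replicate 1 and 44.9-fold higher in replicate 2. These ratios are not lower bounds. The exact Poisson interval, as used for Ezh1, reaches 3.69 counts for Cbx8 in each library. The authors' upper TPM values for Cbx8, 0.398 in replicate 1 and 0.196 in replicate 2, also lie above the limit. The error of Cbx7 itself is not included.

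Ordered by mean TPM of all transcripts, the genes ran Eed, Suz12, Bmi1, Rnf2, Ezh2, Ring1, Jarid2, Cbx7, Ezh1 and Cbx8. Neighbours in that order were apart in both libraries in 4 of 9 steps, those below Ring1. The 5 steps from Eed down to Ring1 overlapped between libraries. That rule does not compare the genes within a library. Within each library Ezh2 was above Ring1, at 86.0 against 70.2 TPM and at 47.1 against 46.6 TPM. In the steps from Eed down to Ezh2 the libraries disagreed on which neighbour was higher. Some genes further apart between Eed and Ring1 did not overlap. The lowest value of Eed, 145 TPM, was above the highest of Bmi1, 141 TPM. The lowest of Suz12, 76.2 TPM, was above the highest of Ring1, 70.2 TPM. With coding transcripts only, the order was Suz12, Rnf2, Ezh2, Ring1, Eed, Jarid2, Bmi1, Cbx7, Ezh1 and Cbx8. In that order 3 of 9 steps were apart, those below Bmi1. Of the overlapping steps, Ezh2 was above Ring1 within each library, at 85.4 against 51.7 TPM and at 46.9 against 29.6 TPM. Ring1 was likewise above Eed, by less, with Eed at 49.5 and 23.6 TPM. In the remaining overlapping steps the libraries disagreed. The low end of the order, with Cbx7 above Ezh1 and Ezh1 above Cbx8, was the same on both scales.

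Noncoding transcripts held over 50% of TPM in both libraries in 3 of the 9 measured genes, Ezh1, Eed and Bmi1. The same held for 20.3% of 6227 protein-coding genes with several transcripts. The median noncoding share of the 9 genes was 13.9% in replicate 1 and 12.2% in replicate 2, beside medians of 6.47% and 6.39% over such genes. The leading transcript differed between libraries in 3 of 9, Ezh1, Jarid2 and Cbx7, close to the 26.9% of 6389 genes for which it differed. The remaining 6 had the same leading transcript in both libraries.

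**Figure D3:**
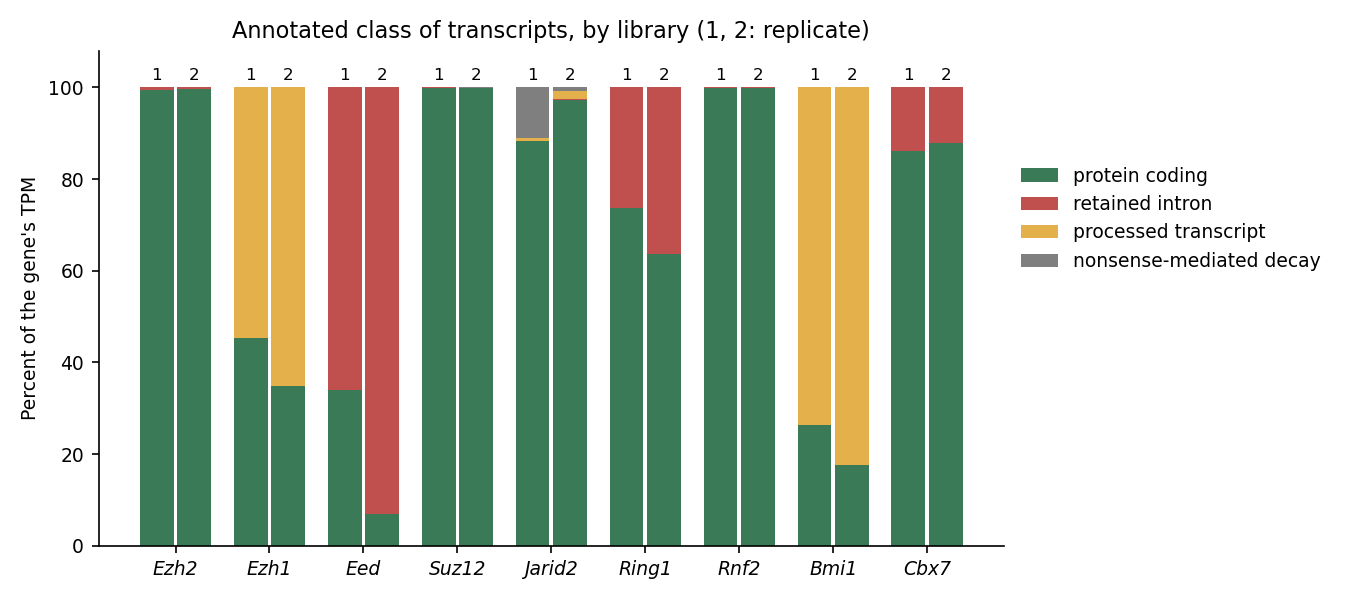
Percent of each gene's TPM by annotated transcript type, for the 9 Polycomb genes with counts, with replicate 1 and replicate 2 side by side. Noncoding types fill over 50% of the bar in both libraries for Ezh1, Eed and Bmi1, and under 1% for Ezh2, Suz12 and Rnf2.

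Between the libraries, 1 of the 9 measured genes was past 2-fold, Suz12, at 2.08-fold higher in replicate 1. The background was 26.9% of 10635 genes past 2-fold, 8.71% higher in replicate 1 and 18.2% higher in replicate 2, and 1 of 9 is no result about these genes. These ratios use expected counts scaled to library sizes by TMM with a prior count of 2, and no test can be made with 1 library on each side. Bmi1 was 1.81-fold, Ezh2 1.49-fold and Ring1 1.38-fold higher in replicate 1. Ezh1 was 1.51-fold and Eed 1.39-fold higher in replicate 2. Jarid2 and Cbx7 each differed by 1.01-fold and Rnf2 by 1.13-fold. The median size of the log2 ratio was 0.47 over the 9 genes and 0.61 over all genes tested. Summed over coding transcripts only, Suz12 and Bmi1 were past 2-fold and Eed was higher in replicate 1, the opposite of its gene-level direction.

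**Figure D4:**
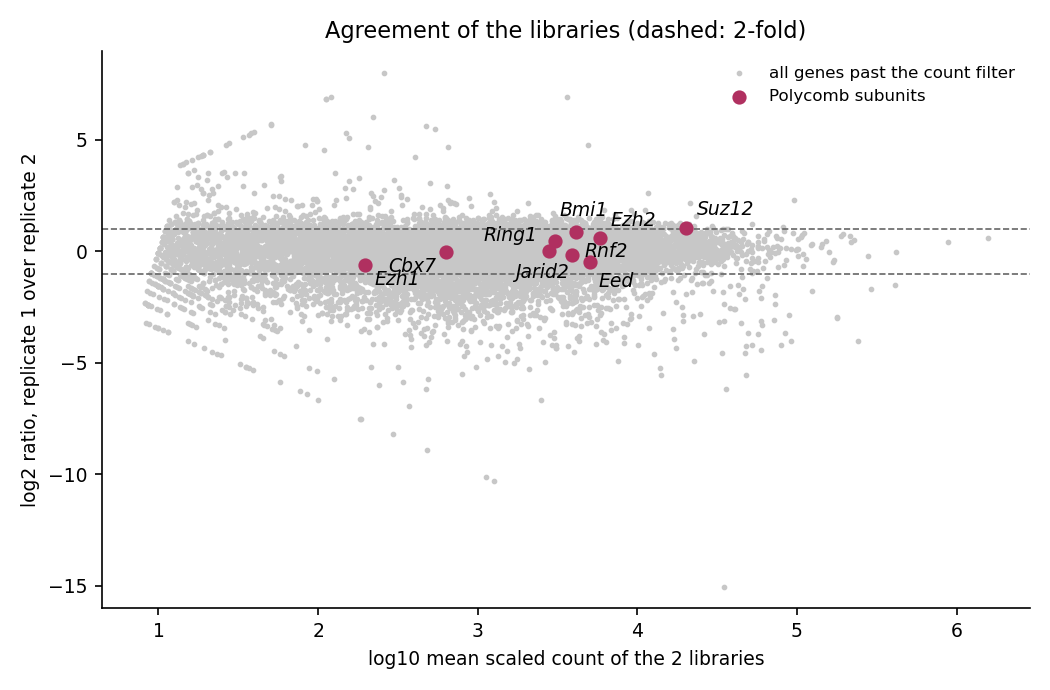
Log2 ratio of replicate 1 over replicate 2 against the log10 mean scaled count of the 2 libraries, for 10635 genes with a summed count of at least 20 (grey) and the 9 Polycomb genes among them (coloured). Dashed lines mark 2-fold. Suz12 lies just past the upper line and the other 8 lie between the lines.

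Most other PRC2 subunits were measurable. Of 10 listed, 9 were matched and 7 were at 1 TPM or more in both libraries, beside 38.6% of protein-coding genes. The median over the 9 was 17.5 TPM in replicate 1 and 12.8 TPM in replicate 2. Rbbp7, a histone-binding subunit shared with other chromatin complexes, was at 431 and 246 TPM. Its paralog Rbbp4 was at 85.4 and 66.9 TPM. Among the accessory subunits that define forms of PRC2, Aebp2, found with Jarid2 in the same form, was at 86.3 and 33.9 TPM. Mtf2, a Polycomb-like protein that guides PRC2 to CpG islands, was at 55.6 and 19.8 TPM, of which coding transcripts held 18.2 and 12.5 TPM. Its paralog Phf1 was at 17.5 and 10.8 TPM, whereas the third, Phf19, was at 0.06 TPM in replicate 1 and listed at 0 in replicate 2. Epop was at 0.06 TPM and listed at 0 likewise. Lcorl was at 15.5 and 12.8 TPM and Lcor at 2.03 and 2.52 TPM. Between the libraries 2 of 7 were past 2-fold, Aebp2 and Mtf2, a share near the 26.9% of all genes.

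Of 20 other PRC1 subunits, 14 were at 1 TPM or more in both libraries, beside 38.6% of protein-coding genes. Medians over the 20 were 9.22 and 6.18 TPM. The 3 highest by mean were Kdm2b, Phc2 and Bcor. Kdm2b, which recruits a noncanonical PRC1 to unmethylated CpG islands, was at 87.4 TPM in replicate 1 and at 110 TPM in replicate 2, with 47.4% and 50.5% of it in noncoding transcripts. Bcor, a scaffold of the same form, was at 57.4 and 63.7 TPM, and its PCGF subunit Pcgf1 at 2.94 and 6.20 TPM. Phc2, a polyhomeotic subunit of canonical PRC1, was at 66.4 and 112 TPM. Of the PCGF paralogs of Bmi1, Pcgf3 was at 75.7 and 37.0 TPM with all transcripts but at 6.20 and 5.97 TPM with coding ones only.

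Other Polycomb CBX genes were low or not counted. Cbx6 was at 8.23 TPM in replicate 1 and at 6.15 TPM in replicate 2. Cbx2 had no count in either library. Of Cbx2, Cbx6, Cbx7 and Cbx8, Cbx6 and Cbx7 alone were at 1 TPM or more. Rybp and Yaf2, which take the place of a CBX protein in the noncanonical forms of PRC1, were at 18.9 and 7.13 TPM and at 38.6 and 33.2 TPM. Of the 15 PRC1 genes past the count filter, 5 were past 2-fold, a share near the 26.9% of all genes. Rybp and Pcgf5 were higher in replicate 1, and Phc1, L3mbtl2 and Pcgf1 were higher in replicate 2.

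Enzymes that remove the Polycomb marks, listed together with partners of such enzymes, were also present. Of 7 listed, 6 were at 1 TPM or more in both libraries, beside 38.6% of protein-coding genes. Medians over the 7 were 32.6 TPM in replicate 1 and 25.7 TPM in replicate 2. None of the 6 past the count filter was past 2-fold, beside 26.9% of all genes, and 0 of 6 is no result about these genes. Bap1, a deubiquitinase of histone H2A, was at 176 and 111 TPM with all transcripts but at 45.3 and 79.3 TPM with coding ones only. By scaled counts Bap1 was 1.71-fold higher in replicate 2. Its partner Asxl2 was at 71.7 and 25.7 TPM. Kdm6b, an H3K27 demethylase, was at 48.7 and 35.9 TPM. Asxl3, another BAP1 partner, had no count.

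**Figure D5:**
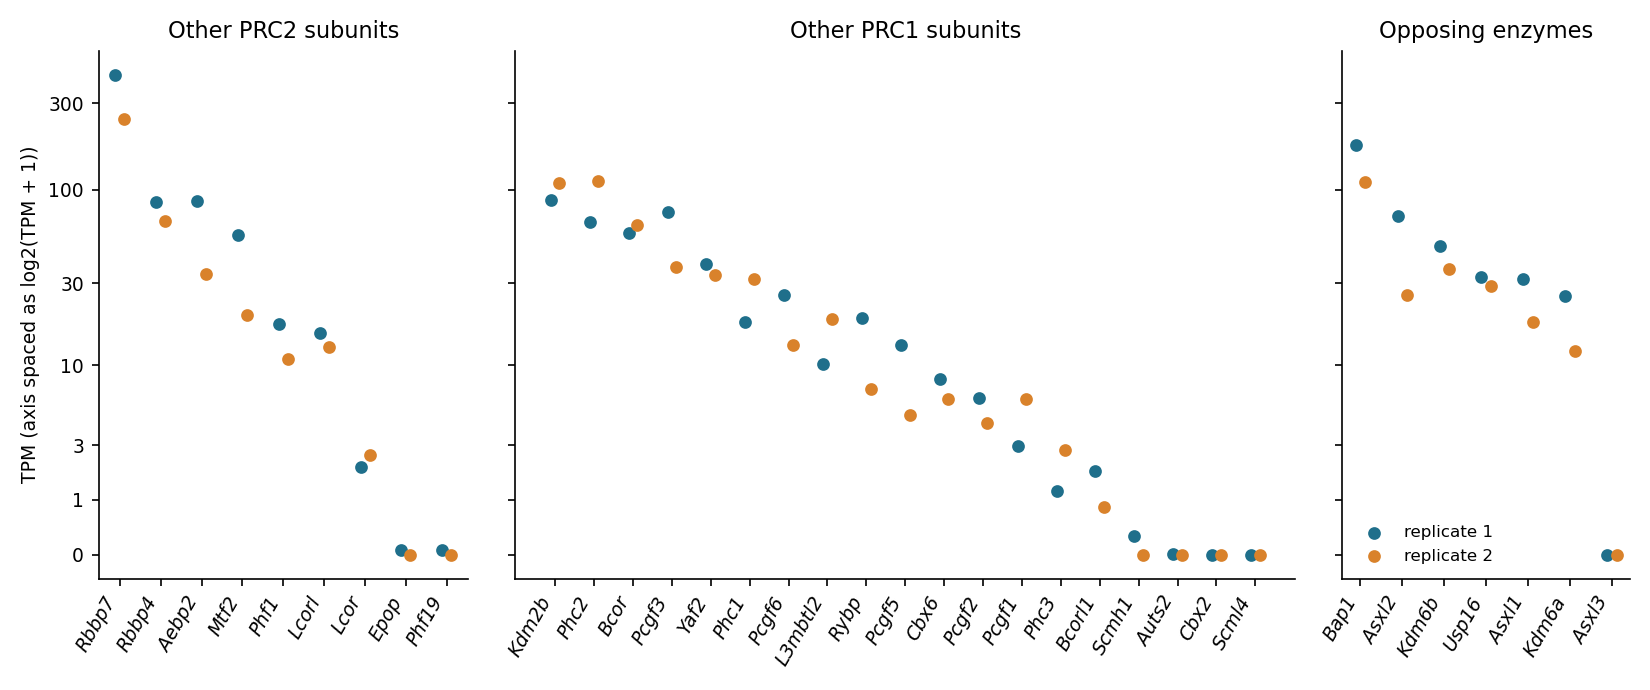
TPM in each library of the other listed PRC2 subunits (left), PRC1 subunits except 1 (middle) and enzymes that remove Polycomb marks with their partners (right). The axis is spaced as log2(TPM + 1) and points are libraries. Rbbp7 is the highest of all genes shown in both libraries, and Cbx2, Scml4 and Asxl3 are at 0.

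Several of the 10 genes overlap others in the annotation, and whether the counting used strand is not given in the sources used here. Of the overlapping genes with a value, all but Trmt1l and Apobec3 were at 0.40 TPM or less in both libraries. Trmt1l, which shares 158 bases with Rnf2, was at 36.4 and 24.8 TPM. Apobec3, which shares 100 bases with Cbx7, was at 1.34 and 0.89 TPM.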

How the data were processed

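Per the text beside the tables, reads were aligned to mm10 and quantified on GENCODE M4. The authors did not pool replicates, and the aligner and quantifier are not stated in the sources used here. The deposited expected counts are estimated fragments per gene or transcript and need not be whole. The deposited TPM values are scaled to length and to a common total, and the deposited FPKM values to length and library size. The deposited percent of a gene's TPM in each transcript and the authors' posterior mean values were also used. Names, types and coordinates came from GENCODE M21 on GRCm38, since M4 was not used here, and 69 of the 74 Polycomb transcripts had the same length in both. Spike-in and numbered entries, with a summed count of 1 in replicate 1 and 0 in replicate 2, were left out.

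Expected counts were rounded, scaled with TMM (edgeR 4.0.16, R 4.3.3) and compared as replicate 1 over replicate 2 with a prior count of 2, for genes with a summed count of at least 20. Fold ratios of pairs are plain TPM ratios. Their log2 values use a pseudocount of 1, which understates ratios of low genes. With 1 group there was no comparison of conditions and no test. Neighbours in the order of levels were called apart where the lowest library of one exceeded the highest of the next. The ratio step was tested on simulated data. Poisson intervals and the limit of 3 counts cover counting error only. DESeq2 1.42.0 size factors, total counts, other filters, pseudocounts and units and each library alone were tried as alternatives. The Polycomb genes and all lists were chosen with earlier results of these data known. All 10 genes, the listed PRC2 and PRC1 subunits, both genes of each pair and, of other lists, the 3 highest and the lowest by mean TPM could be named. Ezhip was not analysed here, and a few other listed genes are not reported by name.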

Additional observations from a re-analysis of the deposited data

How the results depend on the processing

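No paired comparison of conditions was possible because there is 1 group. Of values that answer a comparison, 44 alternatives kept the main value within the spread of the libraries or within 1.5 times for counts, 18 moved it and 4 reversed it, and Ezh2 over Ezh1 was among those kept. Log2 Suz12 over Eed was -0.87, but 1.80 with coding transcripts, 1.80 with complete coding sequences and 1.92 by expected counts, and ran from -2.16 to 0.42 with 1 library left out. Log2 Rnf2 over Ring1, 0.55, was 1.09 with coding transcripts and 1.09 with complete coding sequences. Log2 Bmi1 over Pcgf2, 4.16, was 2.00 with coding transcripts, 1.93 with complete coding sequences, 4.52 by expected counts and 4.38 with a pseudocount of 0.1. Log2 Cbx8 over Cbx7, -2.85, depends on the pseudocount because Cbx8 is at 0. It was -3.09 by posterior mean TPM, -2.65 by FPKM, -2.68 with coding transcripts, -2.67 with complete coding sequences, -9.26 by expected counts and -5.97 with a pseudocount of 0.1. Of 10 ranks, 3 were kept with coding transcripts, 4 with complete coding sequences, and 6 to 8 with 1 library left out. Genes past 2-fold numbered 1, but 2 by TPM + 1 and 2 with coding transcripts, beside 24.3% and 29.0% of all genes, and 3 were past 1.5-fold, beside 51.5%. The mean share of Ezh1-203 in Ezh1, 36.9%, was 19.2% by posterior mean. Total-count scaling moved the median log2 ratio of all genes to 0.11, against 0.00 with TMM, and put Cbx7 higher in replicate 1, the one direction of the 9 that flipped. The complete-sequence alternative and the coding-transcript count of genes past 2-fold were chosen after seeing the data. The causes were not tested beyond the choice of transcripts itself. Depth limits Ezh1, with 114 and 298 fragments, and Cbx8, with none. With 2 libraries that share a cell sample record, an SD measures only their spread.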

Other observations

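A list of 24 textbook Polycomb target genes, mostly regulators of development, was mostly at very low levels, as many genes were. The median level was 0 TPM in both libraries, 19 genes were below 0.1 TPM in both, and 12 had no count in either. Over all protein-coding genes, 52.0% were below 0.1 TPM in both libraries and 40.5% had no count in either. Of the list, 4 genes were at 1 TPM or more in both libraries, beside 38.6% of protein-coding genes. Pax6, a homeobox factor of eye and brain, was at 50.3 TPM in replicate 1 and at 52.4 TPM in replicate 2, of which coding transcripts held 36.1 and 24.8 TPM. Hoxb13, a posterior homeobox gene, was at 41.4 and 65.6 TPM. Pax3, a factor of neural crest and muscle, was at 4.95 and 5.47 TPM and is named here after its values were seen. Other genes of the list with no count, also named after their values were seen, were Hoxa9, Gata6 and Olig2. Cdkn2a, a cell cycle inhibitor gene that Polycomb complexes are known to silence, had 1 count in replicate 1 and 0 in replicate 2, and was likewise named after its values were seen.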
